A study of Mus musculus with 32 samples.

Results

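Kidneys of cystic mice that had received salsalate for 2 weeks were compared with wildtype kidneys across all genes, to describe what still differed from healthy kidney after the drug and which genes lay at wildtype level. The comparison took the 12 PKD + Salsalate kidneys and the 8 wildtype kidneys, 20 of the 32 kidneys in the count table, by the condition given in the sample labels. All mice were male C57BL/6 mice of the iKspCre-*Pkd1*del line, in which exons 2 to 11 of *Pkd1* are flanked by loxP sites and a tamoxifen-inducible Cre is driven by the promoter of Ksp-cadherin, a gene of kidney tubules. PKD + Salsalate mice received tamoxifen (150 mg/kg) on days 18 and 19, had salsalate in the chow (2.5 g/kg) from day 81, and were 95 days old at collection. Salsalate is a prodrug of salicylate. PKD mice, whose values are given beside some results, had the same tamoxifen and age and no salsalate (n = 12). Wildtype mice carried the same line without induction and were 109 days old. *Pkd1* deletion, tamoxifen, age and salsalate therefore all differed between the groups compared, and their shares in a difference cannot be told apart. The PKD and PKD + Salsalate kidneys had been chosen for a mild cystic phenotype, so the kidneys do not span the whole range of the model.

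In polycystic kidney disease, tubule cells that have lost polycystin function divide and form fluid-filled cysts. The tubule wall around the cysts shows injury, macrophages gather, fibroblasts lay down matrix, and the transporters and enzymes that mark each nephron segment are expressed at a lower level. Kidney tubules also depend on fatty acid oxidation and mitochondrial respiration for energy, and changes in these pathways have been described in cystic tissue.

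The wildtype libraries fell into 2 sets by the ending of their library names: 5 ended in R (wildtype-R) and 3 did not (wildtype-other). What the letter stands for is not given in the sources used here. Wildtype-R libraries held 11278382 to 16473782 counts on genes, with 13.2% to 15.8% of alignments on no feature. Wildtype-other libraries held 17011675 to 28290874 counts, with 7.60% to 9.77% on no feature, and PKD + Salsalate libraries held 14088385 to 109807664 counts, with 7.87% to 11.9% on no feature. Of 13961 genes tested, 6715 (48.1%) differed between the wildtype sets at an adjusted p under 0.05 (edgeR's quasi-likelihood test with Benjamini-Hochberg adjustment, as for every adjusted p below). The median size of the log2 difference was 0.31 between the sets and 0.20 between PKD + Salsalate and all wildtype kidneys. A gene is therefore called higher or lower against both sets where the pooled comparison and the comparison with each set passed with one sign. Markers of each nephron segment were present in all kidneys, and *Slc34a1* of the proximal tubule lay at 4026 to 8357 CPM (CPM, counts scaled to the effective library size) in wildtype and 4255 to 6074 CPM in PKD + Salsalate. Defining markers of T cells, B cells, muscle and adrenal cortex (*Cd3e*, *Cd79a*, *Ckm* and *Cyp11b1*) were too low to be tested. The count of *Pkd1* covers the whole gene, including exons outside the deleted part, and does not check the deletion: it was 53.1 to 86.4 CPM (median 66.4) in wildtype and 67.4 to 119.8 CPM (median 91.6) in PKD + Salsalate.

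After salsalate, cystic kidneys still differed from wildtype at many genes. Genes of cell division, tubular injury, matrix and macrophages were higher, markers of the distal tubule and of intercalated cells were lower, and most genes of fatty acid oxidation, the citric acid cycle and the respiratory chain lay within a narrow band around the wildtype level. In the pooled comparison, 6269 of 13961 genes (44.9%) were called, 3037 higher (21.8%) and 3232 lower (23.2%). Against both wildtype sets, 2200 genes (15.8%) were called, 1364 higher (9.77%) and 836 lower (5.99%). Of these, 437 of the higher genes and 93 of the lower genes had a log2 fold change beyond 1. The groups did not overlap at all, with every PKD + Salsalate kidney above or below all wildtype kidneys, for 623 higher genes (4.46%) and 269 lower genes (1.93%). The sign of the pooled fold change differed between the sets for 1162 of the 6269 called genes.

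Wildtype level was tested as equivalence rather than read from a missing call: a gene was placed there where its log2 fold change lay within 0.5 of 0 by a pair of one-sided tests, adjusted over all genes, and its estimate lay within 0.5 against each set. By this measure 8374 genes (60.0%) were at wildtype level. Of them, 6200 were not called as different and 2174 were called with a small difference, 439 of these against both sets. A further 1492 genes were neither called nor at wildtype level, so that the data placed them on neither side. The filter on low counts let 250 genes pass although no wildtype kidney exceeded the cut-off. 235 of these were called higher, which the filter itself favours. The 250 include 9 members of the mitosis list, 5 of the injury list, 4 each of the DNA replication, cytokine and macrophage lists, 3 of the immediate early list, 2 of the complement list and 1 each of the glycolysis and clock lists described below. Counts over those lists therefore describe the members that passed the filter and are not support on their own. Of the genes named below, *Havcr1*, *Serpina10*, *Timp1*, *Scn8a*, *E2f8*, *Trem2*, *Lif*, *Fos*, *Egr2*, *Npas2* and *Dscaml1* passed the filter in this way, so their fold changes and adjusted p-values are given as values and not as support. Every count over a list is to be read against the share of all tested genes: 21.8% called higher and 23.2% lower in the pooled comparison, 9.77% higher and 5.99% lower against both sets, and 60.0% at wildtype level.

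**Figure D1:**
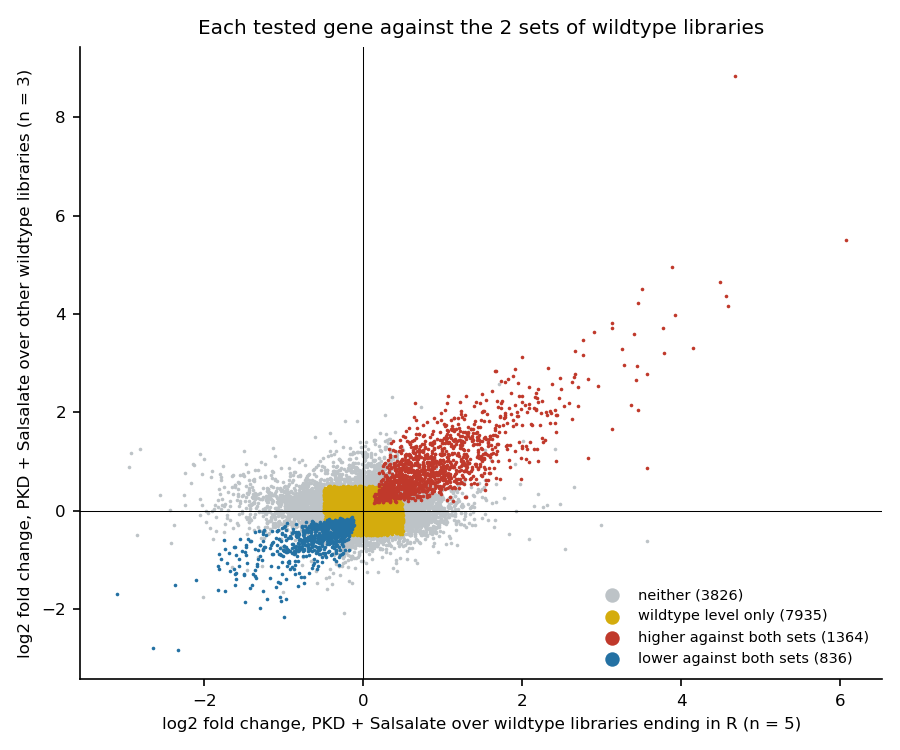
Each point is 1 tested gene, with its log2 fold change of PKD + Salsalate over the 5 wildtype libraries ending in R on the x axis and over the 3 other wildtype libraries on the y axis. The 1364 genes higher and 836 genes lower against both sets lie at the upper right and lower left, and many genes that were neither called against both sets nor at wildtype level lie at the upper left and lower right, where the sets give opposite signs.

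Genes of mitosis were high. Of the 30 genes of the mitosis and spindle list, 29 were tested, of which 27 were called higher, none lower, and 26 higher against both sets, beside 21.8% and 9.77% of all genes. The median log2 fold change was 1.49 (1.46 against wildtype-R and 1.64 against wildtype-other). The groups did not overlap for 24 members, all higher, beside 4.46% of all genes. *Mki67*, which encodes the proliferation marker Ki-67, was measured at 3.81 to 11.0 CPM (median 6.63) in wildtype and 23.1 to 51.4 CPM (median 31.9) in PKD + Salsalate. The groups did not overlap, and the log2 fold change was 2.31 ± 0.17 (adjusted p = 7.27e-13). *Cenpf*, a kinetochore protein, was at 1.78 to 5.26 CPM (median 2.36) in wildtype and 8.83 to 19.3 CPM (median 13.0) in PKD + Salsalate, again without overlap (log2 fold change 2.26 ± 0.18, adjusted p = 3.28e-12). The members that were not called were *Kif11* and *Kif23*, motor proteins of the spindle, with log2 fold changes of -0.07 ± 0.61 and 0.04 ± 0.17. *Kif11* ranged from 3.42 to 335 CPM (median 163) in PKD + Salsalate, far wider than any other member of the list. In PKD kidneys without the drug the list's median was 2.05 over the same wildtype kidneys, and PKD + Salsalate kidneys fell below PKD kidneys for 9 members. These comparisons share kidneys.

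The promoters of the listed mitosis genes were also read. The CHR element (TTTGAA, searched on both strands) is a short motif through which cell cycle genes are controlled. In the window from 250 bases before to 50 bases after the start it was found in 18 of the 24 listed mitosis genes with a RefSeq promoter (75.0%), against 1449 of 10114 promoters of all tested protein-coding genes (14.3%). A match is a description of the letters and not evidence of binding. The share over the list is a property of its tested members and not a measure of change in these kidneys. The share was 18.1% among all genes called higher against both sets and 13.1% among those called lower. The 150 bases before the start follow for 5 mitosis genes that were higher against both sets, shown because 4 of them carry the motif shared by the group. The motif is in capitals, read on the strand of the gene (RefSeq sequences, build GRCm38.p6), and TTCAAA is the motif on the opposite strand. *Cenpf* has none in these bases.
Mki67 (chr7:135716380-135716529, minus strand): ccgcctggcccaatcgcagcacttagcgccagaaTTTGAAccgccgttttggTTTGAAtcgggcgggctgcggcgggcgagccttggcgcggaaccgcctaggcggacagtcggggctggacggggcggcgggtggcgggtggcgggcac
Cdk1 (chr10:69352913-69353062, minus strand): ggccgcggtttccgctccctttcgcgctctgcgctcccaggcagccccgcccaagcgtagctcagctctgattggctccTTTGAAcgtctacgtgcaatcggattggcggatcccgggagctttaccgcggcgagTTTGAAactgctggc
Cdc20 (chr4:118437344-118437493, minus strand): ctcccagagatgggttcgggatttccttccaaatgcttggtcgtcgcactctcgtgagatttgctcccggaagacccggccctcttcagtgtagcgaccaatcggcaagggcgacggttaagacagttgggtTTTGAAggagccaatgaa
Top2a (chr11:99024190-99024339, minus strand): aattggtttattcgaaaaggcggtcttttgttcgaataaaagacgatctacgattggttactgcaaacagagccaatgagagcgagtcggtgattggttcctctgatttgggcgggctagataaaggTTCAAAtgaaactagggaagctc
Cenpf (chr1:189688087-189688236, minus strand): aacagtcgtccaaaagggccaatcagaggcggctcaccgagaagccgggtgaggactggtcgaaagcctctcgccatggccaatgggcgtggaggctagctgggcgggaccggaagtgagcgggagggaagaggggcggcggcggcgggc

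The other genes of these promoters were likewise higher. *Cdk1*, the kinase that starts mitosis, was higher, at 1.40 to 2.07 CPM (median 1.56) in wildtype and 4.18 to 9.76 CPM (median 5.16) in PKD + Salsalate (log2 fold change 1.87 ± 0.18, adjusted p = 3.08e-10). *Cdc20*, an activator of the anaphase-promoting complex, was higher, at 2.37 to 4.05 CPM (median 3.29) in wildtype and 6.99 to 14.3 CPM (median 8.31) in PKD + Salsalate (log2 fold change 1.50 ± 0.16, adjusted p = 1.40e-09). *Top2a*, a topoisomerase of dividing cells, was higher, at 2.48 to 7.07 CPM (median 3.77) in wildtype and 9.92 to 19.5 CPM (median 12.8) in PKD + Salsalate (log2 fold change 1.71 ± 0.18, adjusted p = 2.07e-09). For all of them the lowest PKD + Salsalate kidney lay above the highest wildtype kidney. These 3 genes were chosen after their values were seen.

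Genes of DNA replication were also mostly higher. Of 32 tested members, 25 were called higher and 1 lower, 21 were higher against both sets, and 7 were at wildtype level (median log2 fold change 0.64). *Uhrf1*, which maintains DNA methylation at replication, was at 1.65 to 3.97 CPM (median 2.59) in wildtype and 7.18 to 15.4 CPM (median 9.21) in PKD + Salsalate, without overlap (log2 fold change 1.81 ± 0.16, adjusted p = 4.82e-11). *E2f8*, a repressor of the E2F family, rose by 1.56 ± 0.23 on the log2 scale (adjusted p = 1.48e-06), with 1 PKD + Salsalate kidney inside the wildtype range. *Mcm10*, a replication initiation factor, was at wildtype level, with 7.75 to 9.90 CPM (median 9.37) and 6.89 to 10.7 CPM (median 8.95) (log2 fold change -0.03 ± 0.07, adjusted equivalence p = 1.33e-06). E2F sites (TTTGGCGC or TTTCCCGC, on both strands) were found in 9 of 26 promoters of the list (34.6%), against 3.3% of all promoters.

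The 10 largest rises were taken among protein-coding genes called higher against both sets with an average log2 CPM over 1. *Havcr1* (ENSMUSG00000040405, chromosome 11, 46625907 to 46670405, plus strand; all gene positions on GRCm39) encodes kidney injury molecule 1, which injured proximal tubule cells display. It was at 0.446 to 1.78 CPM (median 0.819) in wildtype and 16.1 to 144 CPM (median 42.2) in PKD + Salsalate, a 54.6-fold difference (log2 fold change 5.77 ± 0.46, adjusted p = 2.10e-12). *Ptgds* (ENSMUSG00000015090, chromosome 2, 25352795 to 25362601, minus strand), a prostaglandin D synthase, was at 3.34 to 6.69 CPM (median 4.38) in wildtype and 90.7 to 133 CPM (median 112) in PKD + Salsalate (log2 fold change 4.55 ± 0.18, adjusted p = 3.25e-22). *Lcn2*, the injury marker also called NGAL, was at 1.22 to 2.45 CPM (median 1.58) and 18.2 to 75.0 CPM (median 33.8) (log2 fold change 4.38 ± 0.29, adjusted p = 3.47e-14). None of these genes had any overlap between the groups, nor did the other members of the 10 largest rises.

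The rest of the 10 were *Serpina10*, a protease inhibitor of plasma (4.47 on the log2 scale), *Timp1*, an inhibitor of matrix proteases (4.29), *Cyp4a14* (3.47) and *Cyp4a12b* (3.05), fatty acid hydroxylases, *Ltbp2*, a matrix protein (3.20), *Scn8a*, a sodium channel subunit (3.19), and *Aoc1*, which degrades histamine (3.17). Their log2 fold changes were of the same sign and beyond 2.5 against each wildtype set. *Cyp4a14* was the most variable in wildtype, at 3.17 to 55.9 CPM (median 10.4), with 1 wildtype-R kidney at the top of that range, and was at 83.5 to 257 CPM (median 149) in PKD + Salsalate (log2 fold change 3.47 ± 0.56, adjusted p = 3.26e-07). It was also higher than in PKD kidneys without the drug (log2 fold change 1.75, adjusted p = 0.0154). The *Cyp4a* genes have close copies, between which reads may be split, and their single values are uncertain.

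The 10 largest falls, taken in the same way, included both alpha globin genes of the red cell list. *Hba-a2* (ENSMUSG00000069917, chromosome 11, 32246168 to 32247320, plus strand), an alpha globin, was at 7.04 to 47.4 CPM (median 12.9) in wildtype and 0.940 to 9.76 CPM (median 2.49) in PKD + Salsalate (log2 fold change -2.71 ± 0.36, adjusted p = 1.45e-07), with 1 PKD + Salsalate kidney inside the wildtype range. *Hba-a1*, a near-identical copy, fell by 1.58 ± 0.23 (adjusted p = 1.31e-06), and the split of reads between the copies is uncertain. *Dusp9* (ENSMUSG00000031383, chromosome X, 72679169 to 72687124, plus strand), a phosphatase of MAP kinases, was at 11.5 to 16.9 CPM (median 14.4) and 2.82 to 5.83 CPM (median 4.26), without overlap (log2 fold change -1.75 ± 0.12, adjusted p = 1.64e-13). *Atp4a*, the catalytic subunit of a proton-potassium pump of acid-secreting cells, was at 22.4 to 45.3 CPM (median 36.2) and 8.79 to 17.8 CPM (median 11.6), also without overlap (log2 fold change -1.64 ± 0.12, adjusted p = 8.20e-13).

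The remaining large falls were *Nalf2* (-1.61 on the log2 scale), *Elavl3*, an RNA-binding protein of neurons (-1.60), *Cyp2d12*, a cytochrome P450 with close copies (-1.55), *Perm1*, a muscle regulator of mitochondrial genes (-1.53), *Klkb1*, the precursor of plasma kallikrein (-1.52), and *C4a*, a complement gene (-1.51). *Cyp2d12* fell further against wildtype-other (-2.17) than against wildtype-R (-0.99), and 2 PKD + Salsalate kidneys lay inside the wildtype range. *Klkb1* passed against both sets in 13 of the 20 fits that each left out 1 kidney (not without wildtype kidney 6, 7 or 8, nor without PKD + Salsalate kidney 3, 4, 8 or 11), while the other 9 falls and all 10 rises passed in every one of them. Of all 2200 genes called against both sets, 1273 passed in every fit. The rises and falls were chosen for large fold changes among those genes, so their passing is a description. The globins fell together with other genes of red cells: 7 of 9 tested members of the red cell list were called lower, and the summed level of its 11 genes was 412.1 to 996 CPM in wildtype and 230.5 to 481.5 CPM in PKD + Salsalate. In bulk tissue, fewer cells of a type and less RNA per cell cannot be told apart, and this holds for every cell type below.

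**Figure D2:**
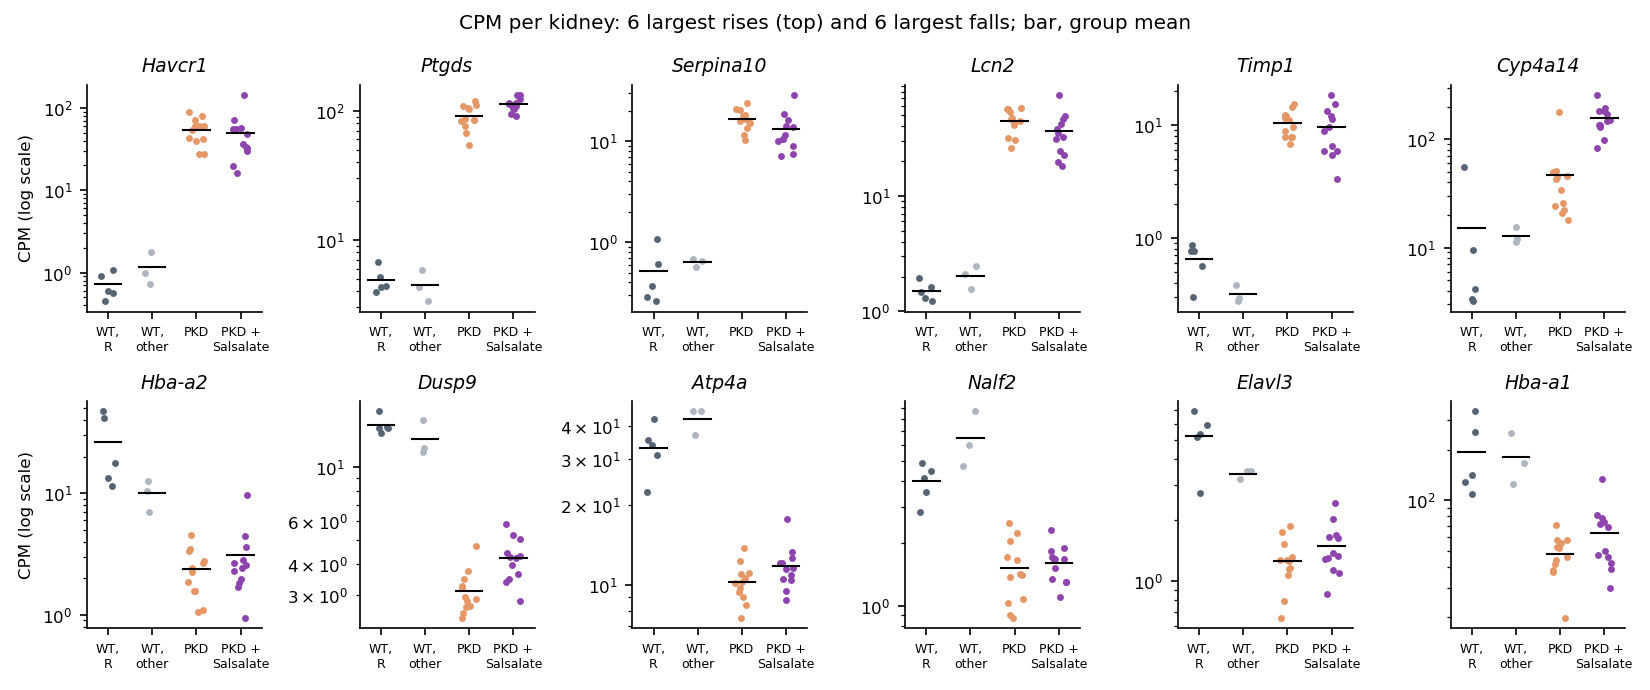
CPM of each kidney (points, log scale) and group means (bars) for the 6 largest rises (top) and the 6 largest falls, in the 5 wildtype libraries ending in R (WT, R), the 3 other wildtype libraries (WT, other), PKD and PKD + Salsalate kidneys. For the 6 rises every PKD + Salsalate kidney lies above every wildtype kidney, and *Cyp4a14* is the only 1 of the 6 that also passed between PKD + Salsalate and PKD.

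Injury genes of the tubule were high as a group. Of 34 tested members of the tubular injury list, 30 were called higher, none lower, 24 were higher against both sets, and 1 was at wildtype level (median log2 fold change 0.92). Beside *Havcr1* and *Lcn2*, *Cdkn1a*, which encodes the cell cycle inhibitor p21, was at 5.80 to 8.36 CPM (median 7.23) in wildtype and 16.5 to 37.2 CPM (median 23.6) in PKD + Salsalate, without overlap (log2 fold change 1.80 ± 0.16, adjusted p = 4.82e-11). The member at wildtype level was *Ghr*, the growth hormone receptor, at 329 to 704 CPM (median 424) and 401 to 569 CPM (median 470.1) (log2 fold change -0.01 ± 0.11, adjusted equivalence p = 1.21e-04). For *Ghr* the wildtype sets lay apart. Wildtype-R kidneys were at 329 to 440 CPM, and wildtype-other kidneys were at 585 to 704 CPM, above every PKD + Salsalate kidney. The median of the list over PKD kidneys, against the same wildtype kidneys, was 1.10, and no member differed between PKD + Salsalate and PKD. That last comparison called 81 of 13961 genes in all (0.580%), and the comparison of PKD with wildtype 6852 (49.1%).

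Extracellular matrix and fibroblast genes rose as well: 34 of 38 were called higher, none lower, and 29 passed against both sets (median log2 fold change 0.96). *Col3a1*, the chain of type III collagen, was at 41.8 to 77.0 CPM (median 48.7) in wildtype and 163 to 456 CPM (median 229) in PKD + Salsalate (log2 fold change 2.21 ± 0.19, adjusted p = 7.12e-12). *Lox*, which cross-links collagen, was at 2.22 to 4.73 CPM (median 3.18) and 12.6 to 37.7 CPM (median 17.9) (log2 fold change 2.57 ± 0.23, adjusted p = 3.25e-11). Both were without overlap between the groups. *Col6a1*, a chain of type VI collagen, was at wildtype level (0.23 ± 0.10, adjusted equivalence p = 0.0104), as were *Col5a2* (-0.15 ± 0.14) and *Col6a3* (0.31 ± 0.10).

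Macrophage and myeloid genes rose almost without exception. Of 29 tested members, 28 were called higher, 26 against both sets, and none was at wildtype level (median log2 fold change 1.19). Their summed level was 605.4 to 904 CPM in wildtype and 1220 to 2326 CPM in PKD + Salsalate, so that the sums did not overlap. *Ptprc*, the leukocyte marker CD45, lay at 8.18 to 23.3 CPM and 23.9 to 48.4 CPM, and *Adgre1*, which encodes the macrophage marker F4/80, at 2.68 to 6.90 CPM and 7.80 to 21.2 CPM. The member that was not called was *Aif1* (0.10 ± 0.22). *Trem2*, a lipid receptor of macrophages, rose by 2.41 ± 0.32 on the log2 scale (adjusted p = 2.38e-07), being at 0.254 to 1.14 CPM (median 0.633) in wildtype and 0.928 to 6.62 CPM (median 2.87) in PKD + Salsalate, with 1 PKD + Salsalate kidney inside the wildtype range. Of 12 tested members of the T, B and NK cell list, none was called higher and 2 were called lower, neither against both sets, while 19 were too low to be tested. *Trac*, the constant chain of the T cell receptor, was at 1.46 to 2.59 CPM (median 1.86) and 1.24 to 2.61 CPM (median 1.82) (adjusted equivalence p = 0.00925).

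Secreted signals and complement showed a mixed picture. Of 23 tested cytokine and chemokine genes, 13 were called higher, all against both sets, and 2 lower. *Lif*, a cytokine of the interleukin-6 family, was at 0.0947 to 0.409 CPM (median 0.273) in wildtype and 1.45 to 5.90 CPM (median 3.39) in PKD + Salsalate (log2 fold change 3.48 ± 0.31, adjusted p = 2.60e-10). *Cxcl12*, a chemokine of stromal and endothelial cells, was at 141 to 247 CPM (median 201) and 93.2 to 173 CPM (median 137) and fell (log2 fold change -0.52 ± 0.11, adjusted p = 2.04e-04), with 4 PKD + Salsalate kidneys inside the wildtype range. Of 24 complement genes, 14 were called higher and 3 lower. *Cfi*, a complement inhibitor, was at 2.27 to 4.13 CPM (median 3.17) and 11.7 to 31.5 CPM (median 14.5), without overlap (log2 fold change 2.40 ± 0.25, adjusted p = 1.14e-09), while *C1rl*, a protease related to complement C1r, fell by 0.44 ± 0.07 on the log2 scale (adjusted p = 1.44e-05). Antigen presentation genes were called higher in 12 of 19 cases and lower in none, with 7 at wildtype level. *Ctss*, a protease of antigen-presenting cells, was higher, at 5.80 to 19.7 CPM (median 11.6) in wildtype and 22.1 to 61.0 CPM (median 31.7) in PKD + Salsalate (log2 fold change 1.48 ± 0.20, adjusted p = 2.06e-07). Interferon-stimulated genes were called higher in 7 of 28 cases and against both sets in 3, beside 21.8% and 9.77% of all genes, and their median was 0.00 against wildtype-R and 0.62 against wildtype-other.

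**Figure D3:**
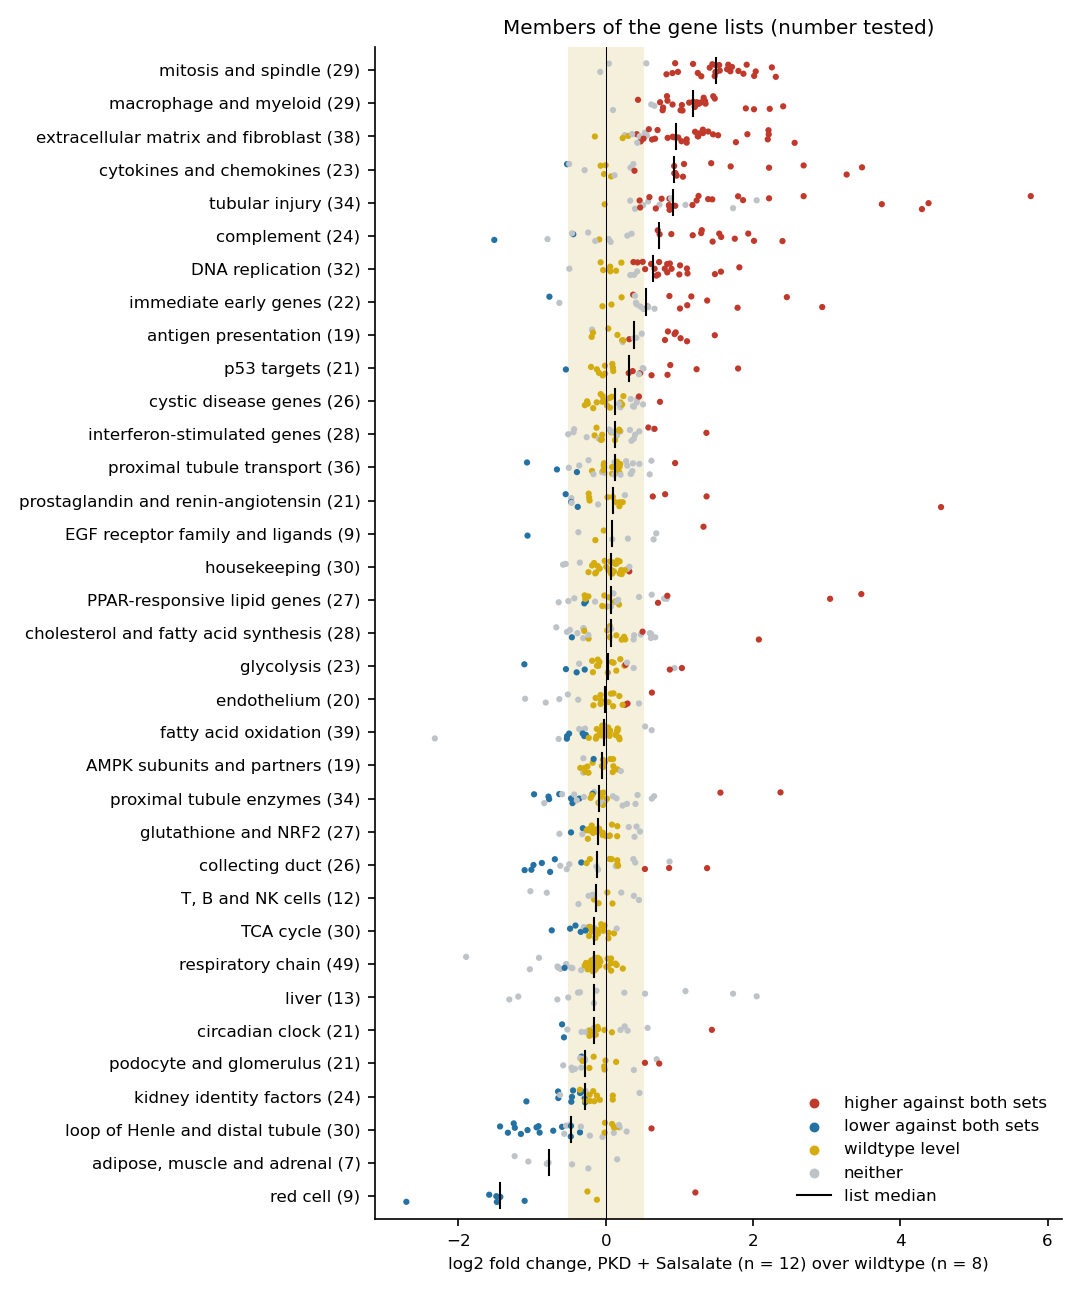
Each point is a tested member of a gene list (number tested in parentheses), placed by its log2 fold change of PKD + Salsalate (n = 12) over wildtype (n = 8), with black bars at list medians and a shaded band from -0.5 to 0.5. Lists of mitosis, macrophages, matrix and injury lie to the right, loop of Henle and distal tubule genes to the left, and most metabolic lists inside the band.

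Genes of the distal nephron were mostly lower. Of 30 tested genes of the loop of Henle and distal tubule, 17 were called lower, beside 23.2% of all genes, and 2 higher (median log2 fold change -0.47). Against both sets 14 were lower, beside 5.99% of all genes. The groups did not overlap for 11 of the lower members, beside 1.93% of all genes. *Slc8a1*, the sodium-calcium exchanger of the distal tubule, was at 66.5 to 179.6 CPM (median 94.0) in wildtype and 32.7 to 46.2 CPM (median 40.5) in PKD + Salsalate (log2 fold change -1.43 ± 0.14, adjusted p = 2.99e-10). *Calb1*, the calcium-binding protein of the same cells, was at 202 to 454 CPM (median 278) and 82.7 to 176 CPM (median 114) (log2 fold change -1.33 ± 0.12, adjusted p = 2.82e-10). *Slc12a3*, the thiazide-sensitive sodium-chloride cotransporter that defines the segment, was at 952 to 1219 CPM (median 996) and 453 to 649.7 CPM (median 533) (log2 fold change -0.91 ± 0.07, adjusted p = 7.14e-12). None of the 3 had any overlap between the groups.

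Markers of the thick ascending limb gave other values. *Slc12a1*, its sodium-potassium-chloride cotransporter, was at wildtype level (587 to 1072 CPM (median 791) and 636 to 972 CPM (median 757), log2 fold change -0.02 ± 0.11), and *Umod*, which encodes uromodulin, was not called (log2 fold change 0.18 ± 0.12, 0.52 against wildtype-R and -0.26 against wildtype-other). *Cldn19*, a claudin of its tight junctions, was higher against both sets (27.8 to 52.0 CPM (median 44.1) and 55.0 to 77.0 CPM (median 65.1), log2 fold change 0.62 ± 0.09, adjusted p = 4.27e-07). *Egf*, whose product is made in the thick ascending limb and distal tubule, was at 626 to 1339 CPM (median 818) and 256 to 586 CPM (median 462), without overlap (log2 fold change -1.06 ± 0.14, adjusted p = 2.14e-07). *Btc*, another ligand of the EGF receptor, was higher, at 1.19 to 3.49 CPM (median 2.77) in wildtype and 4.75 to 10.2 CPM (median 5.95) in PKD + Salsalate (log2 fold change 1.33 ± 0.19, adjusted p = 4.30e-07). Of the 9 tested members of the EGF family list, these were the only ones called against both sets.

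In the collecting duct, 12 of 26 members were called lower and 5 higher. The 7 that were lower against both sets all mark intercalated cells (*Atp6v0d2*, *Atp6v1b1*, *Atp6v1g3*, *Foxi1*, *Slc26a4*, *Slc4a1* and *Slc4a9*), and the 3 higher were the water channel *Aqp4* and the keratins *Krt8* and *Krt18*. *Atp6v1b1*, a subunit of the proton pump of intercalated cells, was at 123 to 216 CPM (median 167) in wildtype and 70.7 to 94.4 CPM (median 77.8) in PKD + Salsalate, without overlap (log2 fold change -1.01 ± 0.08, adjusted p = 5.28e-12). *Slc4a1*, an anion exchanger of type A intercalated cells and of red cells, was at 21.8 to 42.4 CPM (median 26.7) and 9.60 to 22.5 CPM (median 13.7) (log2 fold change -1.10 ± 0.14, adjusted p = 7.87e-08), with the globins lower in the same kidneys. The part of red cells in the fall of *Slc4a1* was not tested. *Aqp4*, a water channel of principal cells, was higher, at 6.54 to 21.7 CPM (median 11.2) in wildtype and 22.0 to 42.4 CPM (median 33.0) in PKD + Salsalate (log2 fold change 1.38 ± 0.17, adjusted p = 4.93e-08), and *Krt18*, a keratin of simple epithelium, was at 23.2 to 37.4 CPM (median 29.7) and 34.6 to 69.5 CPM (median 54.1) (log2 fold change 0.86 ± 0.10, adjusted p = 2.14e-08). *Krt7*, another keratin, was at wildtype level (log2 fold change 0.08 ± 0.07, adjusted equivalence p = 5.97e-06).

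Proximal tubule genes gave different answers against the 2 wildtype sets. The median log2 fold change of 36 transport genes was 0.41 against wildtype-R and -0.26 against wildtype-other, and 1 member was higher and 3 were lower against both sets. *Slc7a13*, a transporter of aspartate, glutamate and cystine, was at 618 to 1101 CPM (median 849) in wildtype and 235 to 495 CPM (median 407) in PKD + Salsalate, without overlap (log2 fold change -1.07 ± 0.12, adjusted p = 1.40e-08). *Slc13a1*, a sulfate transporter, rose by 0.94 ± 0.17 on the log2 scale (adjusted p = 1.49e-05), although 6 PKD + Salsalate kidneys lay inside the wildtype range. *Slc5a2*, the glucose transporter SGLT2, was at wildtype level, at 558 to 823 CPM (median 649) and 531 to 768 CPM (median 652) (log2 fold change -0.03 ± 0.08, adjusted equivalence p = 2.30e-06). PKD kidneys were lower for it (log2 fold change -0.29, adjusted p = 0.00198), but PKD + Salsalate and PKD did not pass the test of their difference (0.27, adjusted p = 0.06).

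Among 34 proximal tubule enzymes, 14 were called lower and 4 higher, 8 and 2 against both sets. *Dpep1*, a brush border dipeptidase, was at 154 to 207 CPM (median 176) and 75.0 to 110.4 CPM (median 90.2) (log2 fold change -0.97 ± 0.09, adjusted p = 7.28e-10). *Miox*, which degrades myo-inositol, was at 1798 to 2600.0 CPM (median 2186) and 895 to 1566 CPM (median 1265) (log2 fold change -0.78 ± 0.08, adjusted p = 1.84e-09). Both were without overlap. *Cyp24a1*, which inactivates vitamin D, and *Cyp27b1*, which activates it, were both higher against both sets. *Cyp24a1* was at 6.85 to 40.5 CPM (median 9.21) in wildtype and 52.6 to 171 CPM (median 80.4) in PKD + Salsalate (log2 fold change 2.37 ± 0.45, adjusted p = 1.63e-05), without overlap, and *Cyp27b1* at 1.08 to 9.18 CPM (median 2.13) and 3.97 to 20.8 CPM (median 7.12) (log2 fold change 1.56 ± 0.32, adjusted p = 1.47e-04), with 9 PKD + Salsalate kidneys inside the wildtype range. The call against both sets was lost without wildtype kidney 7 for *Cyp24a1* and without wildtype kidney 6 or 8 for *Cyp27b1*.

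Transcription factors that mark kidney segments were mostly lower, by small amounts. Of 24 members, 16 were called lower and 1 higher, 10 lower against both sets, and 12 were at wildtype level (median log2 fold change -0.28). *Tfap2b*, a factor of the distal tubule, was at 64.8 to 154 CPM (median 120.4) in wildtype and 42.1 to 62.9 CPM (median 51.5) in PKD + Salsalate, without overlap (log2 fold change -1.08 ± 0.14, adjusted p = 2.39e-07), with a smaller difference against wildtype-other (-0.44) than against wildtype-R (-1.36), where the call against both sets was lost without wildtype kidney 6 or 8. *Emx1*, a homeobox factor, was at 45.9 to 61.3 CPM (median 57.4) and 26.1 to 41.1 CPM (median 36.8), also without overlap (log2 fold change -0.65 ± 0.08, adjusted p = 5.36e-08). *Nr3c1*, the glucocorticoid receptor, was at wildtype level (-0.16 ± 0.07, adjusted equivalence p = 3.77e-05). Podocyte and glomerular genes were called lower in 10 of 21 cases and higher in 4 in the pooled comparison. Their median log2 fold change was -0.28 (-0.31 against wildtype-R and -0.10 against wildtype-other). Endothelial genes were called lower in 5 of 20 cases and higher in 4. Against both sets, 3 podocyte and glomerular genes passed (*Pdgfrb* and *Serpine2* higher, *Cdkn1c* lower), and 3 endothelial genes (*Cdh5*, *Eng* and *Pecam1*, all higher), beside 15.8% of all genes. Of the endothelial genes, 13 (65.0%) were at wildtype level, beside 60.0% of all genes. The call of *Cdkn1c* against both sets was lost without wildtype kidney 2, 6 or 8. *Pdgfrb*, a receptor of mesangial cells and pericytes, was at 55.9 to 66.0 CPM (median 61.0) and 77.6 to 131 CPM (median 102), without overlap (log2 fold change 0.73 ± 0.08, adjusted p = 6.53e-09). *Cdh5*, which encodes VE-cadherin, was higher, at 20.0 to 30.9 CPM (median 28.5) in wildtype and 35.2 to 54.4 CPM (median 42.7) in PKD + Salsalate (log2 fold change 0.63 ± 0.09, adjusted p = 9.55e-07).

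**Figure D4:**
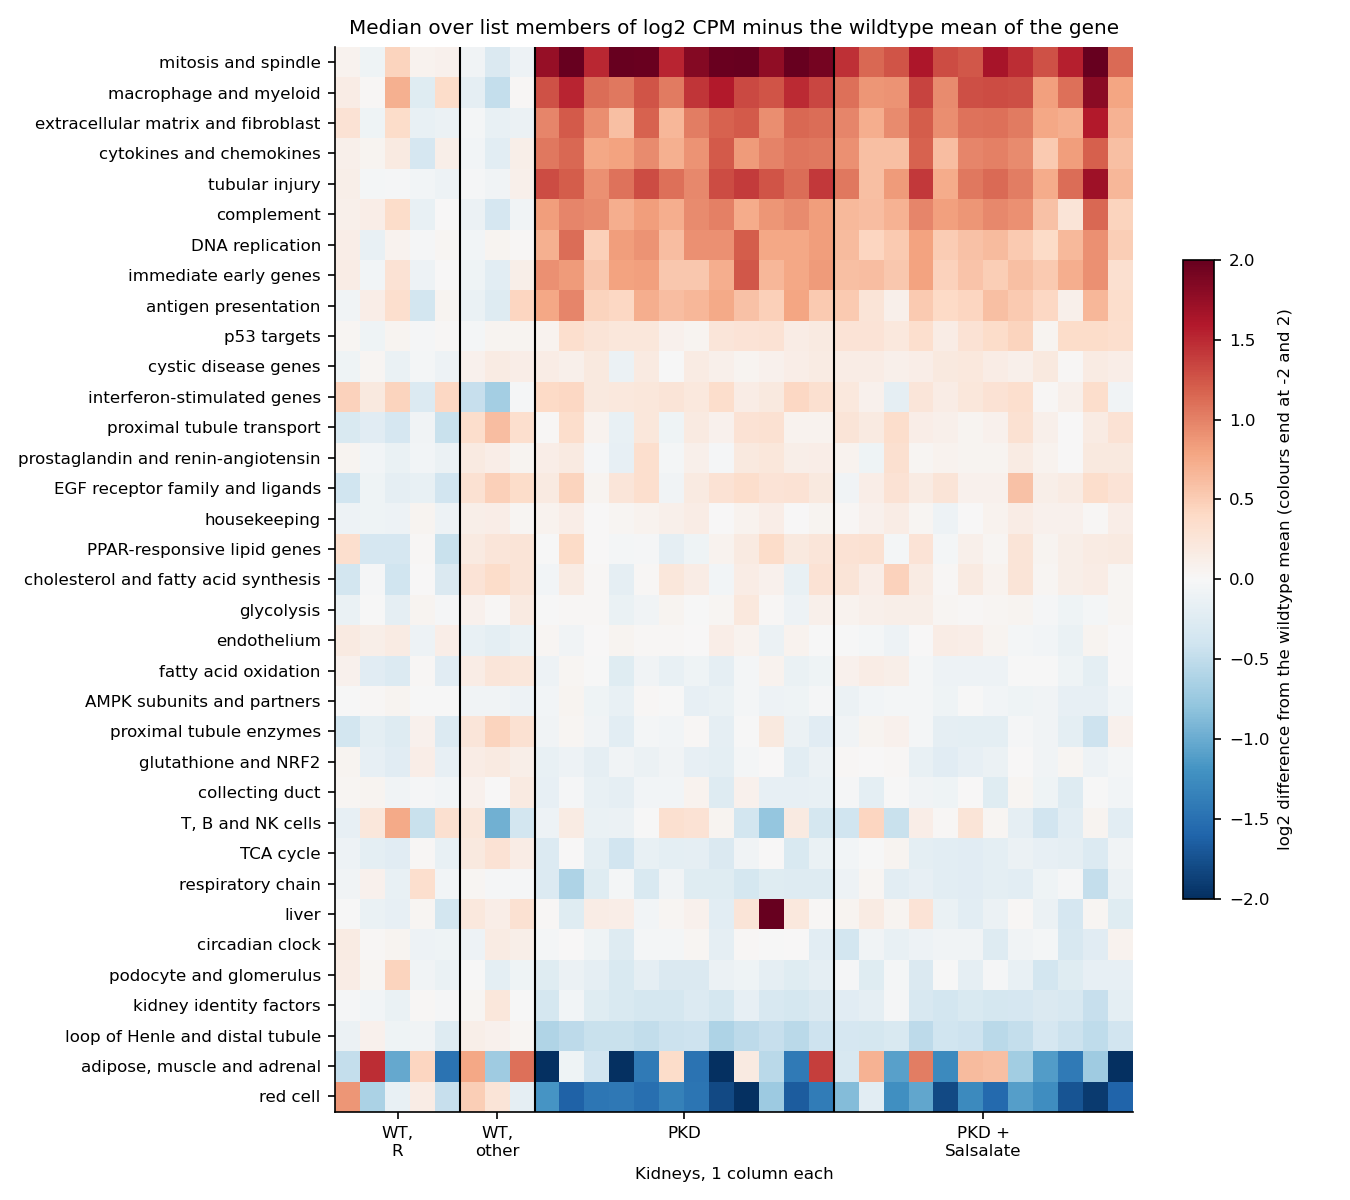
Colour shows, for each kidney (column) and gene list (row), the median over members of log2 CPM minus the wildtype mean of the gene, with colours ending at -2 and 2. All 12 PKD + Salsalate kidneys are above all 8 wildtype kidneys for mitosis, injury, matrix, macrophage and cytokine lists, and all 12 are below them for the loop of Henle and distal tubule list.

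Within the PKD + Salsalate group the kidneys varied on these lists. The median deviation of the mitosis list from the wildtype mean ranged from 1.13 in PKD + Salsalate kidney 12 to 2.17 in kidney 11, with the next highest at 1.65. Kidney 11 was also the highest for the lists of injury (1.69), matrix (1.59), macrophages (1.80), cytokines (1.20) and complement (1.15), and the lowest for proximal tubule enzymes (-0.42), the respiratory chain (-0.47) and kidney identity factors (-0.46). No PKD + Salsalate kidney reached the wildtype range on the lists of mitosis, DNA replication, injury, matrix, cytokines, macrophages, immediate early genes or p53 targets. For p53 targets the gap was very small, with the lowest PKD + Salsalate kidney at 0.054 and the highest wildtype kidney at 0.051. The caution on members that passed the filter without a wildtype kidney over the cut-off holds for these medians too, except for matrix and p53 targets.

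At wildtype level were 29 of 39 genes of fatty acid oxidation, 24 of 30 of the citric acid cycle and pyruvate entry, and 38 of 49 of the respiratory chain, beside 60.0% of all tested genes. Glycolysis genes were at that level in 14 of 23 cases (60.9%), near the share of all genes, with 7 called higher and 7 lower. *Acaa1a*, a thiolase of peroxisomal oxidation, was at 209.8 to 267 CPM (median 251) in wildtype and 209 to 274 CPM (median 247) in PKD + Salsalate (log2 fold change -0.02 ± 0.06, adjusted equivalence p = 2.29e-08), and *Uqcrfs1*, the iron-sulfur subunit of complex III, at 351 to 433 CPM (median 393) and 306 to 405 CPM (median 379) (-0.09 ± 0.05, adjusted equivalence p = 5.37e-08). The pooled comparison called 11 genes of fatty acid oxidation lower and 4 higher, but 6 lower and none higher against both sets. Of the citric acid cycle list, 13 were called lower and none higher, 7 of them against both sets. The median log2 fold change of that list was -0.15 (-0.05 against wildtype-R and -0.34 against wildtype-other), and -0.18 in PKD kidneys against the same wildtype kidneys. The fatty acid oxidation list had a median of 0.11 against wildtype-R and -0.26 against wildtype-other. Its median was -0.07 in PKD kidneys against the same wildtype kidneys. With only the wildtype-other libraries, 20 of 30 citric acid cycle genes and 20 of 39 fatty acid oxidation genes were called lower and none higher. With only the wildtype-R libraries, 8 and 8 were called lower and 5 and 12 higher.

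For the respiratory chain, 21 members were called lower and 1 higher in the pooled comparison. Of the lower ones, *Ndufa10* alone passed against both sets. The list's median log2 fold change was -0.16, and -0.28 in PKD kidneys against the same wildtype kidneys. *Ndufa10*, a subunit of complex I, was at 346 to 597 CPM (median 448) in wildtype and 235 to 342 CPM (median 303) in PKD + Salsalate (log2 fold change -0.56 ± 0.08, adjusted p = 1.93e-06), with -0.72 against wildtype-R and -0.24 against wildtype-other, and it lost the call against both sets without wildtype kidney 6, 7 or 8 and without PKD + Salsalate kidney 7 or 8. The member with the lowest value, *Ndufb9*, another subunit of complex I chosen after its values were seen, had a pooled log2 fold change of -1.90 ± 0.28, made of -2.39 against wildtype-R and -0.30 against wildtype-other. *Etfb*, an electron carrier of fatty acid oxidation chosen the same way, had -2.32 ± 0.31 pooled, -2.85 against wildtype-R and -0.50 against wildtype-other. Against wildtype-other alone neither passed (adjusted p = 0.39 and 0.14).

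Among genes that govern carbon flow, *Pdk1*, a kinase that inhibits pyruvate dehydrogenase, was at 46.2 to 68.8 CPM (median 54.5) in wildtype and 29.5 to 40.4 CPM (median 31.8) in PKD + Salsalate, without overlap (log2 fold change -0.73 ± 0.07, adjusted p = 1.54e-09). *Pcx*, pyruvate carboxylase, was at 409 to 722 CPM (median 517) and 264 to 497 CPM (median 396) (log2 fold change -0.48 ± 0.11, adjusted p = 4.39e-04), with 5 PKD + Salsalate kidneys inside the wildtype range, and lost its call against both sets without wildtype kidney 4. In glycolysis, *Pgam2* (-1.10 ± 0.12, adjusted p = 3.37e-09) and the pyruvate kinase gene *Pkm* (-0.54 ± 0.06, adjusted p = 3.93e-08) were lower without overlap, and *Eno2*, an enolase, was higher, at 1.86 to 2.67 CPM (median 2.36) in wildtype and 3.43 to 7.91 CPM (median 4.50) in PKD + Salsalate (log2 fold change 1.03 ± 0.14, adjusted p = 3.82e-07). *Ldha*, lactate dehydrogenase A, was at wildtype level, at 819.9 to 1008 CPM (median 894) and 723 to 929.8 CPM (median 834), with a small difference that passed in the pooled comparison (log2 fold change -0.12 ± 0.05, adjusted equivalence p = 5.80e-08). Genes of AMPK, the energy sensor that salicylate activates, were at wildtype level in 16 of 19 cases, and 1, the regulatory subunit *Prkag1*, was lower against both sets (log2 fold change -0.16 ± 0.05, adjusted p = 0.00977), a small difference that also counted as wildtype level and passed against both sets in 7 of the 20 fits. For comparison, 25 of 30 housekeeping genes were at wildtype level, and *B2m*, of the antigen-presenting complex, was the only one called against both sets (0.32 ± 0.09), a call that it lost in 10 of the 20 fits.

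Of 27 genes known to respond to PPAR, the fatty acid receptors, 7 were called higher and 8 lower, 4 and 2 of them against both sets, beside 21.8%, 23.2%, 9.77% and 5.99% of all genes. Of the list, 11 were at wildtype level (40.7%, beside 60.0%), and 4 were higher in PKD + Salsalate than in PKD (median 0.19 against wildtype-R and -0.11 against wildtype-other). *Cyp4a12b* was at 2.05 to 6.81 CPM (median 4.63) in wildtype and 31.6 to 50.3 CPM (median 38.9) in PKD + Salsalate (log2 fold change 3.05 ± 0.18, adjusted p = 2.56e-15). *Ucp2* (0.71 ± 0.09) and *Vnn1* (0.84 ± 0.13) were the others that were higher. Of 28 genes of cholesterol and fatty acid synthesis, 10 were called higher and 6 lower, but 2 and 1 against both sets, and 9 were at wildtype level. Their median log2 fold change was 0.35 against wildtype-R and -0.10 against wildtype-other. *Acly*, which makes cytosolic acetyl-CoA, was at 106 to 147 CPM (median 121) and 74.6 to 114 CPM (median 90.5) (log2 fold change -0.46 ± 0.09, adjusted p = 1.61e-04), and passed against both sets. Of 27 genes of glutathione and the NRF2 response, 20 were at wildtype level, and *Gclm* (-0.31 ± 0.07) and *Ggt1* (-0.47 ± 0.09), of glutathione synthesis and breakdown, were lower against both sets. The call of *Gclm* was lost without wildtype kidney 1, and that of *Ggt1* without wildtype kidney 6 or 7.

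Stress and signalling genes moved in part. Immediate early genes were called higher in 17 of 22 cases and lower in 2, 10 and 1 against both sets (median log2 fold change 0.54). *Fos*, a transcription factor induced within minutes of a stimulus, was at 0.508 to 1.23 CPM (median 0.799) in wildtype and 2.09 to 8.67 CPM (median 3.66) in PKD + Salsalate, without overlap (log2 fold change 2.46 ± 0.36, adjusted p = 1.54e-06), and *Egr2*, another such factor, at 0.0635 to 0.862 CPM (median 0.272) and 0.870 to 4.95 CPM (median 2.06) (2.94 ± 0.39, adjusted p = 5.40e-07). Genes that p53 activates were called higher in 11 of 21 cases and lower in 1, with 10 at wildtype level. *Gdf15*, a stress hormone, was higher, at 4.64 to 10.5 CPM (median 7.62) in wildtype and 12.9 to 27.6 CPM (median 18.4) in PKD + Salsalate (log2 fold change 1.23 ± 0.17, adjusted p = 1.73e-07), while *Rrm2b*, a ribonucleotide reductase subunit, was lower, at 23.6 to 35.6 CPM (median 27.7) in wildtype and 16.4 to 27.0 CPM (median 18.9) in PKD + Salsalate (-0.54 ± 0.10, adjusted p = 4.51e-05). The call of *Rrm2b* against both sets was lost without wildtype kidney 6, 7 or 8.

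Salicylates can inhibit prostaglandin synthesis, although the study describes salsalate as only a weak inhibitor of its cyclo-oxygenase enzymes beside aspirin. In the prostaglandin and renin-angiotensin list, 4 members were higher and 3 lower against both sets, and 10 of 21 were at wildtype level. Beside *Ptgds*, *Hpgds*, the hematopoietic prostaglandin D synthase, was higher, at 2.41 to 6.98 CPM (median 4.22) in wildtype and 7.85 to 16.5 CPM (median 10.8) in PKD + Salsalate, without overlap (log2 fold change 1.37 ± 0.16, adjusted p = 1.24e-08). *Agt*, angiotensinogen, was at 74.7 to 115 CPM (median 95.2) and 40.0 to 74.8 CPM (median 65.9) (log2 fold change -0.54 ± 0.10, adjusted p = 5.31e-05), and *Ptger3*, a prostaglandin E receptor, was at wildtype level (log2 fold change 0.02 ± 0.09, adjusted equivalence p = 6.50e-06). *Ptgds* had been high in PKD kidneys as well (log2 fold change over wildtype 4.25), and its difference between PKD + Salsalate and PKD did not pass (0.31, adjusted p = 0.176). Clock genes were at wildtype level in 10 of 21 cases (47.6%, beside 60.0% of all tested genes). *Npas2*, an activator of the clock, was higher (1.44 ± 0.23, adjusted p = 6.37e-06), and the repressor *Per1* (-0.57 ± 0.15, adjusted p = 0.00231) and the deubiquitinase gene *Usp2* (-0.59 ± 0.09, adjusted p = 4.95e-06) lower against both sets. The call against both sets was lost without wildtype kidney 1, 7 or 8 for *Per1* and without wildtype kidney 7 for *Usp2*. The time of day of collection is not given in the sources used here.

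Genes mutated in human cystic diseases were at wildtype level in 16 of 26 cases (61.5%, beside 60.0% of all tested genes). Both that passed against both sets were higher without overlap: *Pkd2*, the partner of *Pkd1*, at 133 to 179 CPM (median 159) in wildtype and 193 to 251 CPM (median 213) in PKD + Salsalate (log2 fold change 0.45 ± 0.07, adjusted p = 5.62e-06), and *Pkhd1*, the fibrocystin gene, at 67.8 to 112 CPM (median 78.3) and 119 to 167 CPM (median 141) (0.74 ± 0.09, adjusted p = 6.37e-08). *Pkd1* was called higher in the pooled comparison (log2 fold change 0.43 ± 0.11, adjusted p = 0.00129) with 0.55 against wildtype-R and 0.25 against wildtype-other, and did not pass against the latter.

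Only 8 genes met all 3 conditions for a return to wildtype level: called in PKD against wildtype, called in PKD + Salsalate against PKD, and at wildtype level in PKD + Salsalate. As these contrasts chose the genes, the values are a description. *Acss1*, the mitochondrial acetyl-CoA synthetase, was at 133 to 219 CPM (median 179.7) in wildtype, 98.0 to 154 CPM (median 114) in PKD and 128 to 185 CPM (median 145) in PKD + Salsalate. *Fndc5*, the precursor of irisin, was at 2.90 to 4.82 CPM (median 3.42), 1.59 to 3.01 CPM (median 1.87) and 2.37 to 4.32 CPM (median 3.02) in the same order. *Top1mt*, the mitochondrial topoisomerase, was at 43.7 to 49.2 CPM (median 47.8), 31.5 to 41.9 CPM (median 37.3) and 38.2 to 50.5 CPM (median 42.6), and *Aldoc*, an aldolase, at 19.6 to 25.8 CPM (median 22.1), 14.3 to 20.0 CPM (median 16.4) and 17.4 to 24.2 CPM (median 20.8). These 4 and *Syngr1* were low in PKD. For *Acss1*, wildtype-R kidneys lay at 133 to 219 CPM, while wildtype-other kidneys lay at 198 to 206 CPM, above every PKD + Salsalate kidney. *Syngr1* was at 17.2 to 23.0 CPM in wildtype-R, 26.3 to 30.3 CPM in wildtype-other and 16.2 to 26.4 CPM in PKD + Salsalate. *Hmgn2*, a nucleosome-binding protein, was high in PKD (83.2 to 105 CPM (median 90.2)) and at 67.6 to 82.8 CPM (median 74.1) and 67.8 to 86.1 CPM (median 77.3) in wildtype and PKD + Salsalate, and *Tex30* and *Eef1akmt3* behaved alike. The PKD differences from wildtype of the 8 genes lay between -0.79 and 0.60 on the log2 scale. *Acss1* and *Top1mt* were still called lower than wildtype in the pooled comparison, with small differences (-0.24 ± 0.09 and -0.15 ± 0.05).

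By contrast, 19 genes differed in PKD + Salsalate from both wildtype and PKD with 1 sign while PKD did not pass against wildtype. The 5 largest are described, again without a test, since the rule used these contrasts. *Depp1*, a regulator of autophagy, was at 3.79 to 12.6 CPM (median 7.24) in wildtype, 4.48 to 22.2 CPM (median 8.80) in PKD and 13.3 to 51.2 CPM (median 21.0) in PKD + Salsalate, and was not called against both sets without wildtype kidney 6 or 7. *Dscaml1*, a cell adhesion molecule, was at 0.379 to 1.65 CPM (median 0.938), 0.475 to 1.81 CPM (median 0.967) and 0.963 to 3.96 CPM (median 2.57) in the same order, and *Slc22a29*, an organic anion transporter, at 1.81 to 4.55 CPM (median 2.50), 2.43 to 4.26 CPM (median 3.47) and 3.54 to 5.90 CPM (median 5.06). On the low side, *C4a* was at 2.27 to 9.52 CPM (median 3.14), 1.55 to 5.99 CPM (median 2.73) and 0.861 to 2.04 CPM (median 1.40). *C4a* has a near-identical copy, *C4b*, between which reads may be split, and its value is uncertain. *Apoc3*, an apolipoprotein of liver, was at 7.67 to 14.2 CPM (median 8.72), 3.30 to 45.2 CPM (median 6.56) and 3.34 to 5.20 CPM (median 4.19), and against wildtype-other alone it did not pass (log2 fold change -0.95, adjusted p = 0.0855). The summed level of 23 liver genes was 193.3 to 381.2 CPM (median 261.3) in wildtype and 209.2 to 347.9 CPM in PKD + Salsalate. In PKD the sum reached 6863 CPM, but its median was 262.6 CPM, near that of wildtype. The high value was therefore not general in the PKD group. The highest value of *Alb* in PKD was 1929.9 CPM. Of 13 tested liver genes, 1 was called higher and 1 lower than wildtype, neither against both sets, and of 7 tested genes of fat, muscle and adrenal gland none was called. That fit also held the PKD kidneys. In a fit of only the groups compared, 4 of the 13 liver genes were called higher and 4 lower. The *Apoc3* value of 45.2 CPM came from PKD kidney 10, and the next highest PKD kidney was at 10.1 CPM. Whether *Apoc3* would pass between PKD and wildtype without PKD kidney 10 was not tested. The part of liver RNA in the *Apoc3* difference between PKD + Salsalate and PKD was not tested.

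**Figure D5:**
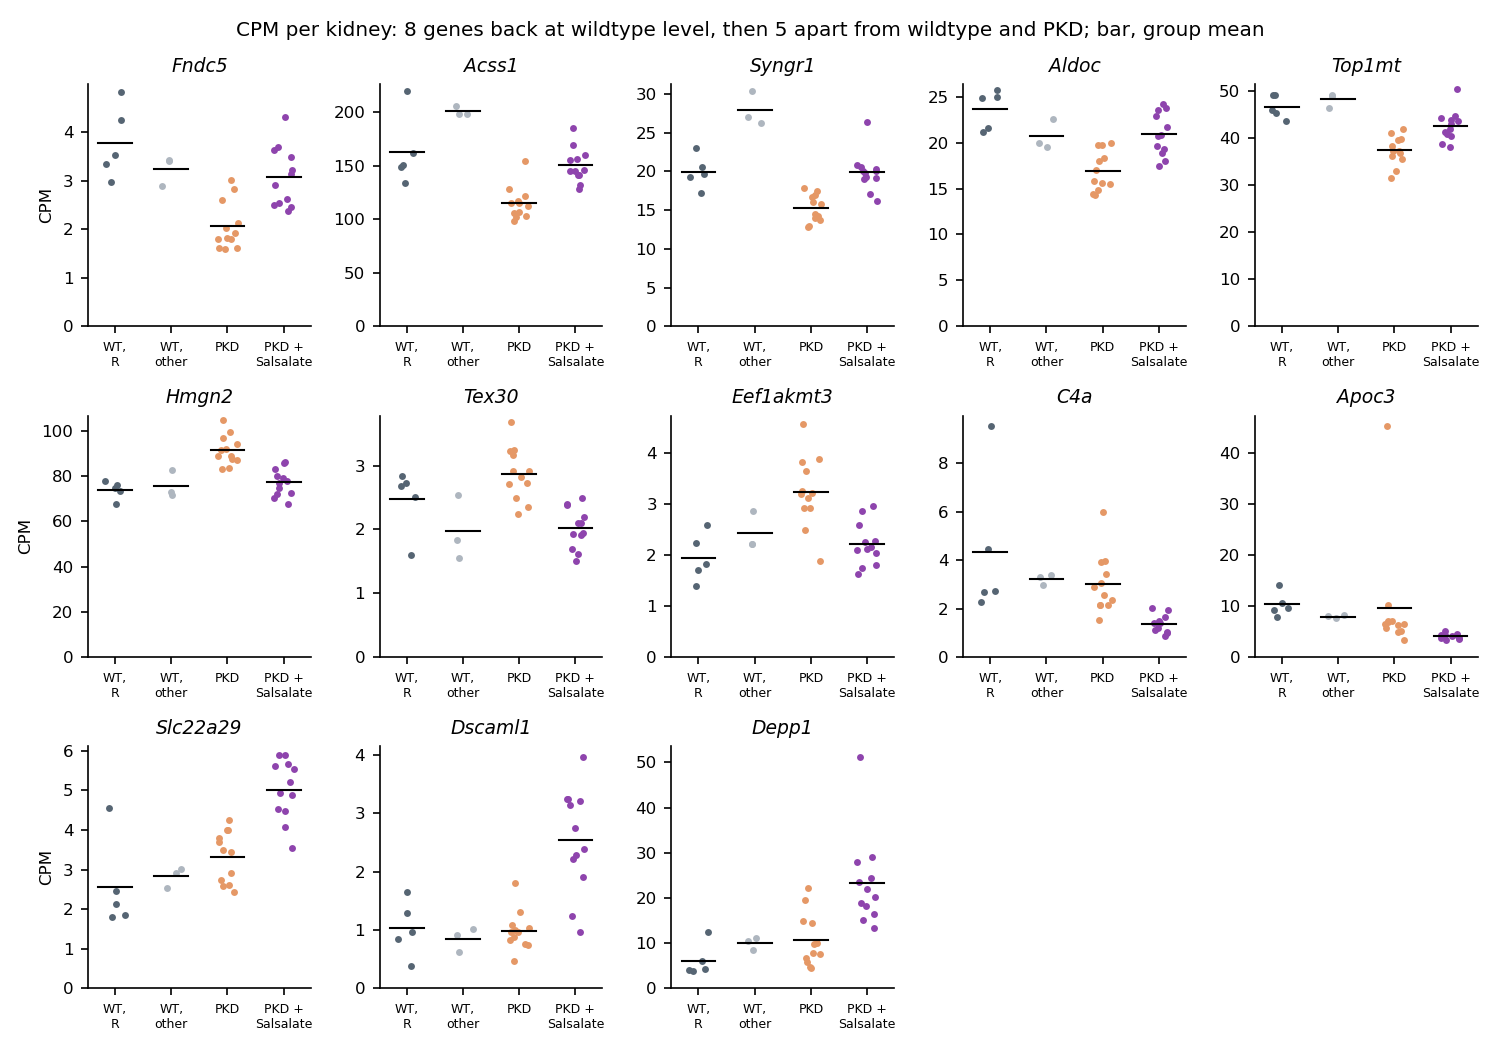
CPM of each kidney (points) and group means (bars) for the 8 genes back at wildtype level and then, from *C4a* on, the 5 genes apart from both other groups, in the same 4 sets of kidneys (WT, R; WT, other; PKD; PKD + Salsalate). For *Apoc3* 1 PKD kidney lies at 45.2 CPM, and for *C4a* 1 wildtype kidney at 9.52 CPM, apart from the rest of their groups.

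Some pooled calls rested on which wildtype libraries were used. The 5 called genes whose sign differed and whose gap between the sets was widest were *Gm6058*, *Gm37423*, *Gm37436*, *Gm38120* and *Gm37204*, a processed pseudogene, a long non-coding RNA and 3 transcripts of unconfirmed status (a class that the annotation calls TEC). *Gm6058* was at 7.88 to 13.1 CPM in wildtype-R, 0.381 to 1.09 CPM in wildtype-other and 0.538 to 2.53 CPM in PKD + Salsalate. Its log2 fold change was -2.28 ± 0.49 pooled, -2.95 against wildtype-R and 0.89 against wildtype-other. All 12 PKD + Salsalate kidneys lay inside the wildtype range for each of these genes. Of 192 tested TEC genes, 117 were higher in wildtype-R than in wildtype-other and 25 lower. Against the sets separately, 8181 genes were called with wildtype-R and 4676 with wildtype-other, and 746 were called with opposite signs.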

How the data were processed

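Poly(A) RNA of whole kidneys was sequenced after a directional library preparation. Per the labels and the study's methods, the authors demultiplexed reads with bcl2fastq 2.20, trimmed them with cutadapt 2.10, aligned them to GRCm39 with STAR 2.7.5a and counted reads per Ensembl 103 gene by strand with HTSeq 0.12.4. The deposited values are raw counts for 53700 genes in 32 kidneys, and the rows of unassigned reads stayed out of library sizes and tests. Depth ranged from 11193136 to 109807664 counts on genes. Groups came from the sample titles, which number each kidney as a replicate of its group, and p-values measure the spread between these kidneys.

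Tests covered the 13961 genes that exceeded 1 on the log2 CPM scale in 25% or more of all kidneys. edgeR 4.0.16 in R 4.3.3 (TMM factors, quasi-likelihood test, two-sided, Benjamini-Hochberg adjustment over all genes, threshold 0.05) was fitted once with 3 groups and once with the wildtype libraries split by the ending of their names. Wildtype level was tested by a pair of one-sided tests at a margin of 0.5 on the log2 scale. Fold changes are fitted values and CPM values use TMM-scaled library sizes. The method was tested on simulated data.

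The named genes were *Pkd1*, the 10 largest rises and falls among protein-coding genes called against both sets with an average log2 CPM over 1 whose sign held without any 1 kidney, from each of 35 gene lists up to 2 rises and 2 falls called against both sets and the member at wildtype level with the smallest equivalence p, up to 10 genes back at wildtype level, up to 5 apart from both other groups, and up to 5 whose sign differed between the wildtype sets. Genes of the lists that are given outside this rule, among them the segment markers, *Cdk1*, *Cdc20*, *Top2a*, *Kif11*, *Kif23*, *Etfb* and *Ndufb9*, were chosen after their values were seen. The comparison, the gene lists and the rules were chosen with earlier results of these data known. Gene positions are from GENCODE M39 (52610 of 53700 identifiers found), and 971 of 974 list entries were matched to the table. Alternatives were other size factors and filters, a fit of only the groups compared, a likelihood-ratio test, limma-voom (limma 3.58.1), DESeq2 1.42.0, each wildtype set alone, both sets weighed equally, replicate numbers as a block, and leaving out each of the 20 kidneys. The values of a few genes that the rule would name are not reported here.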

Additional observations from a re-analysis of the deposited data

Results flagged for a closer look

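The level of *C4a* in wildtype kidney 2 (9.52 CPM) stood apart from the other 7 wildtype kidneys by Dixon's test. It was the only one among the 38 genes examined in this way, and chance alone flags about 1 in 20 groups. PKD + Salsalate kidneys were at 0.861 to 2.04 CPM for this gene, below all wildtype kidneys, so the highest wildtype kidney does not set the order of the groups, while it does raise the wildtype mean.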

How the results depend on the processing

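The count of genes called in the pooled comparison (6269) ranged from 4824 with only the wildtype-other libraries to 8117 with only the wildtype-R libraries, and the counts by limma-voom (6056) and DESeq2 (6449) lay between. With a log2 fold change beyond 1 as a further condition it was 645 (447 higher, 198 lower). Leaving out 1 kidney at a time gave 5573 to 6867 genes in the pooled comparison, 1631 to 2329 against both sets, 7868 to 8468 at wildtype level and 461 to 498 called members of the gene lists. At a margin of 1 in place of 0.5, 12416 genes were at wildtype level. With only the wildtype-other libraries, the log2 fold changes of *Gm37204* (1.15), *Gm37423* (1.18), *Gm37436* (1.26), *Gm38120* (0.95) and *Gm6058* (0.90) were above 0, while they were below 0 in the pooled comparison. Of the named genes that lost their call against both sets without 1 kidney, 12 did so without wildtype kidney 7, 11 without wildtype kidney 6 and 11 without wildtype kidney 8, the 3 wildtype-other libraries. Wildtype kidneys and PKD + Salsalate kidneys share replicate numbers. Deviations of same-numbered kidneys correlated at -0.36 to 0.28, over 0.1 in 3 of 8 pairs, and none correlated best with its own number. The main fit treated the numbers as names, although 8 such correlations cannot show that the numbers carry no shared order of processing. With the replicate number as a block, 5392 genes were called in the pooled comparison, 1664 against both sets, 8090 were at wildtype level and 457 list members were called. The precision is limited by the 3 wildtype-other libraries. No alternative that kept both wildtype sets removed the difference between them in their share of reads on no feature.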

Other observations

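*Kif11*, a spindle motor, was under 10 CPM in 2 of 12 PKD + Salsalate kidneys (kidney 4 at 4.74 CPM and kidney 12 at 3.42 CPM) and in 3 of 12 PKD kidneys (kidneys 1, 5 and 7 at 5.04, 5.03 and 3.90 CPM), and in none of the 8 wildtype kidneys. The remaining kidneys lay between 77.3 and 335 CPM. It was chosen after its values were seen.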
